A study of Mus musculus with 6 samples.

Results

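The 10 genes described here encode the 5 DNA-binding subunits of the transcription factor NF-kB (Nfkb1, Nfkb2, Rel, Rela and Relb) and 5 genes that NF-kB induces, several of which shut it off again (Nfkbia, Nfkbiz, Tnfaip3, Tnfaip2 and Ier3). They were selected by gene symbol, not by a measured value, though with earlier results of these data known. All 10 had a row among the 11779 genes of the count table. All 10 also passed the filter on low counts, so that none is missing from the 10869 genes tested. RNA-seq counts came from long-term hematopoietic stem cells, the rare marrow cells that sustain blood production, of female mice aged 8 weeks. The sort took c-Kit, Sca-1 and CD150 positive cells that lacked CD48 and lineage markers. The HET group (3 libraries, numbered 1, 3 and 4) had the genotype c-Mycfl/+Mx1Cre, in which 1 Myc allele is floxed and Cre is driven by the interferon-responsive Mx1 promoter. The WT group (3 libraries with the same numbers) had the genotype c-Mycfl/+, so its mice carried the floxed allele too but no Cre. Poly(I:C), a mimic of viral double-stranded RNA, was injected 3 times at 6 mg/kg to induce the deletion, and whether WT mice received it, or how long before the sort, was not stated separately. The Mx1 promoter responds in many cell types, so deletion is not limited to stem cells. Whether each library is a separate mouse is not stated, so the p-values measure the spread between these libraries.

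NF-kB acts as dimers of its Rel family subunits, which inhibitors of the IkB type hold in the cytoplasm. Signals from tumour necrosis factor, interleukin-1 or sensors of foreign nucleic acid activate IkB kinase, the inhibitor is degraded, and the dimer enters the nucleus. Among the first genes it induces are its own brakes, above all Nfkbia and Tnfaip3. Poly(I:C) is itself recognised by sensors that signal to NF-kB, and in blood stem cells the pathway is known for linking inflammation to the choice between quiescence and proliferation.

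Promoter sequences are shown because NF-kB acts on its brakes through kB sites, DNA motifs to which its dimers bind. RefSeq promoter windows (GRCm38.p6), each running from 250 bases before to 50 bases after a transcription start, were found for 7 of the 10 genes, 10 windows in all. The kB consensus was searched by pattern on both strands. It occurred in 8 of the 10 windows. The share was 8.46% over all 32851 windows in the table and 10.3% over the 10692 windows of genes tested. By gene it occurred in 6 of the 7 (Nfkbia, Tnfaip3, Nfkb2, Rel, Tnfaip2 and Ier3), and no share by gene was computed for the table. Because the list holds genes chosen as induced by NF-kB, a high share was to be anticipated and says nothing about HET and WT. Rela had no match in its window, nor did the more downstream of the 2 Tnfaip3 windows. The search counts overlapping matches separately, and windows 2 and 3 of Nfkb2 share the same site. A match is a description of the letters, and binding was not measured. Of the 4 windows printed here, Nfkbia and Tnfaip3 are those of the best known brakes, Nfkb2 is that of a subunit gene that NF-kB itself induces, and Nfkbid, no member of the 10, is that of the pathway gene with the largest difference described further on (its other 2 windows hold no match). Capitals mark matches to the kB consensus, and each sequence is written 5′ to 3′ on the strand of its gene.
Nfkbia, chr12:55492598-55492897, minus strand: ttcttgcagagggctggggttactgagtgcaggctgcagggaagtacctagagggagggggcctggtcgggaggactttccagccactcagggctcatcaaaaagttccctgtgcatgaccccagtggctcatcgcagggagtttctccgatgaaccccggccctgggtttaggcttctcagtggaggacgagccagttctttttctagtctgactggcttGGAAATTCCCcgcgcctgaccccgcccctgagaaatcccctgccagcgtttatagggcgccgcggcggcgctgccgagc
Tnfaip3, chr10:19015361-19015660, minus strand: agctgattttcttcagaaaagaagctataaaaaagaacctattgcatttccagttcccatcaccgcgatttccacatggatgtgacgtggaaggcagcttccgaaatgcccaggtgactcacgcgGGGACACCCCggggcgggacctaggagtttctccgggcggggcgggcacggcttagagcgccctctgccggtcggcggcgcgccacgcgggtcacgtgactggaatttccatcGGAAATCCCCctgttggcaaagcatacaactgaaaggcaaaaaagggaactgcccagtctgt
Nfkb2, chr19:46304487-46304786, plus strand: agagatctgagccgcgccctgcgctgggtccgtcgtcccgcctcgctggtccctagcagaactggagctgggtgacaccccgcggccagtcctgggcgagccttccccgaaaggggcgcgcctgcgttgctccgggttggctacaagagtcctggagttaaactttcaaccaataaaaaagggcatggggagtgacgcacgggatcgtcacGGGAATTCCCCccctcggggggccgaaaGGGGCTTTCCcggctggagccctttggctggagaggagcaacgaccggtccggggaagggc
Nfkbid, chr7:30422156-30422455, plus strand: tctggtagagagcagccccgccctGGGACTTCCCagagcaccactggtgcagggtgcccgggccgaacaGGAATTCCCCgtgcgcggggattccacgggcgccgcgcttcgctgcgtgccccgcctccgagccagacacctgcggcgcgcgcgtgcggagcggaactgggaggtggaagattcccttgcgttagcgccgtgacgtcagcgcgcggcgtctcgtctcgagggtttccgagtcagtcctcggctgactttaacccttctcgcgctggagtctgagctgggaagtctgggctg
In Nfkbia the match begins 29 bases before the start, and in Tnfaip3 the nearer of 2 matches begins 12 bases before it. The Nfkb2 window holds 3 matches, the nearest of them beginning 11 bases before the start and 2 of them overlapping. Windows 2 and 3 of Nfkb2 hold the kB site of the immunoglobulin kappa light chain enhancer, in which NF-kB was first described, and 0.155% of all windows hold that site.

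**Figure D1:**
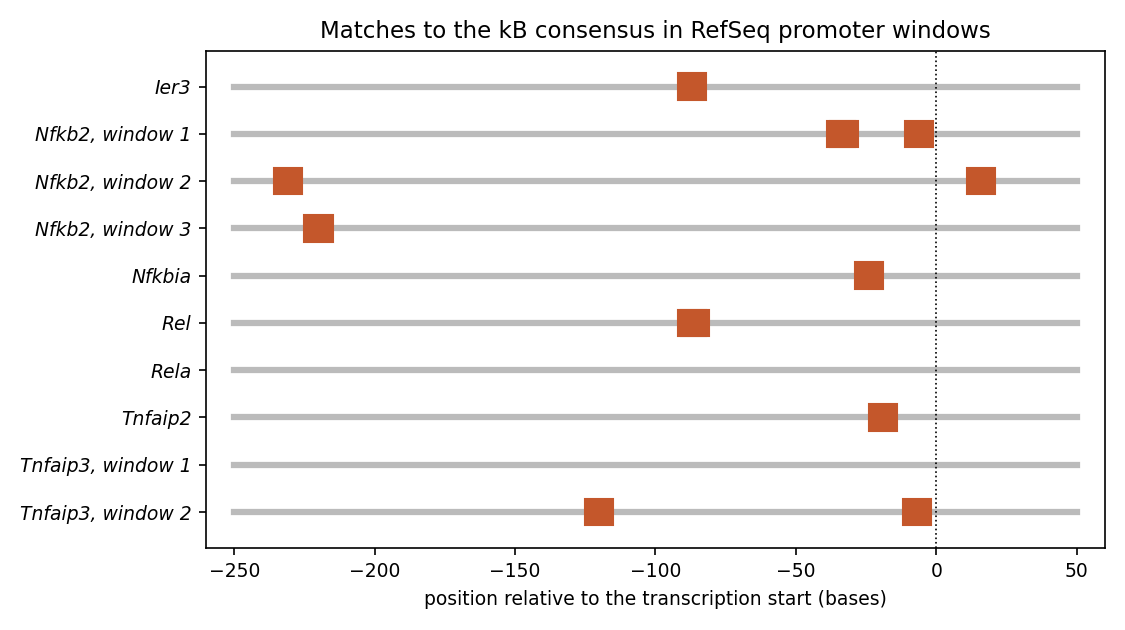
Matches to the kB consensus (boxes) in the 10 RefSeq promoter windows of the 7 genes with a window, drawn as grey lines against the position relative to the transcription start in bases (dotted line). Matches lie in 8 of the 10 windows, and the windows of Rela and the downstream window of Tnfaip3 have none.

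Total counts were between 4627452 and 9886223 in HET libraries and between 4249490 and 5600856 in WT libraries, with HET 1 the deepest. Levels are given as CPM, read counts scaled to the depth of each library with TMM factors. Myc, the targeted gene, measured 293.8, 386.7 and 372.0 CPM in HET 1, 3 and 4, against 447.4, 427.4 and 541.8 CPM in WT 1, 3 and 4, with no overlap of the groups. Its log2 fold change (HET over WT) was -0.43 ± 0.12 (SE), its adjusted p by edgeR's quasi-likelihood test was 0.312, and its exact two-sided permutation p of 0.1 is the smallest that 3 against 3 libraries allow. The stem cell gene Kit was among the most abundant of the sort markers at 1193 ± 58.5 CPM in HET and 1157 ± 68.9 CPM in WT, and Slamf1, which encodes CD150, measured 68.2 ± 14 CPM in HET and 73.8 ± 11.1 CPM in WT (SD, n = 3 each). Cd48, the marker sorted against, was low at 6.97 ± 2.88 CPM in HET and 2.55 ± 0.806 CPM in WT, and the HET libraries lay above the WT libraries (edgeR adjusted p = 0.849).

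None of the 10 genes passed an adjusted p of 0.05 in edgeR. Over all 10869 genes 28 passed, which is 0.258%, and those lower in HET made up 0.221% and those higher 0.0368%. An unadjusted p under 0.05 was reached by 2 of the 10, Tnfaip3 and Tnfaip2, where the share over all genes was 5.22%. With DESeq2 1 of the 10, Tnfaip3, passed its adjusted threshold, and with limma-voom 0 did. The HET and WT libraries did not overlap for 1 of the 10, Tnfaip3, which was lower in HET. Over all genes 10.3% did not overlap, 5.64% with HET below WT and 4.69% with HET above WT, so 1 in 10 is the share found over the table. Of the log2 fold changes 8 were negative and 2 positive, with a median of -0.12 for the 10 genes and 0.00397 for all genes tested. By role, the median was -0.07 for the 5 subunits, 0.14 for the 2 IkB family genes and -0.55 for the other 3 induced genes, and differences between roles were not tested.

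**Figure D2:**
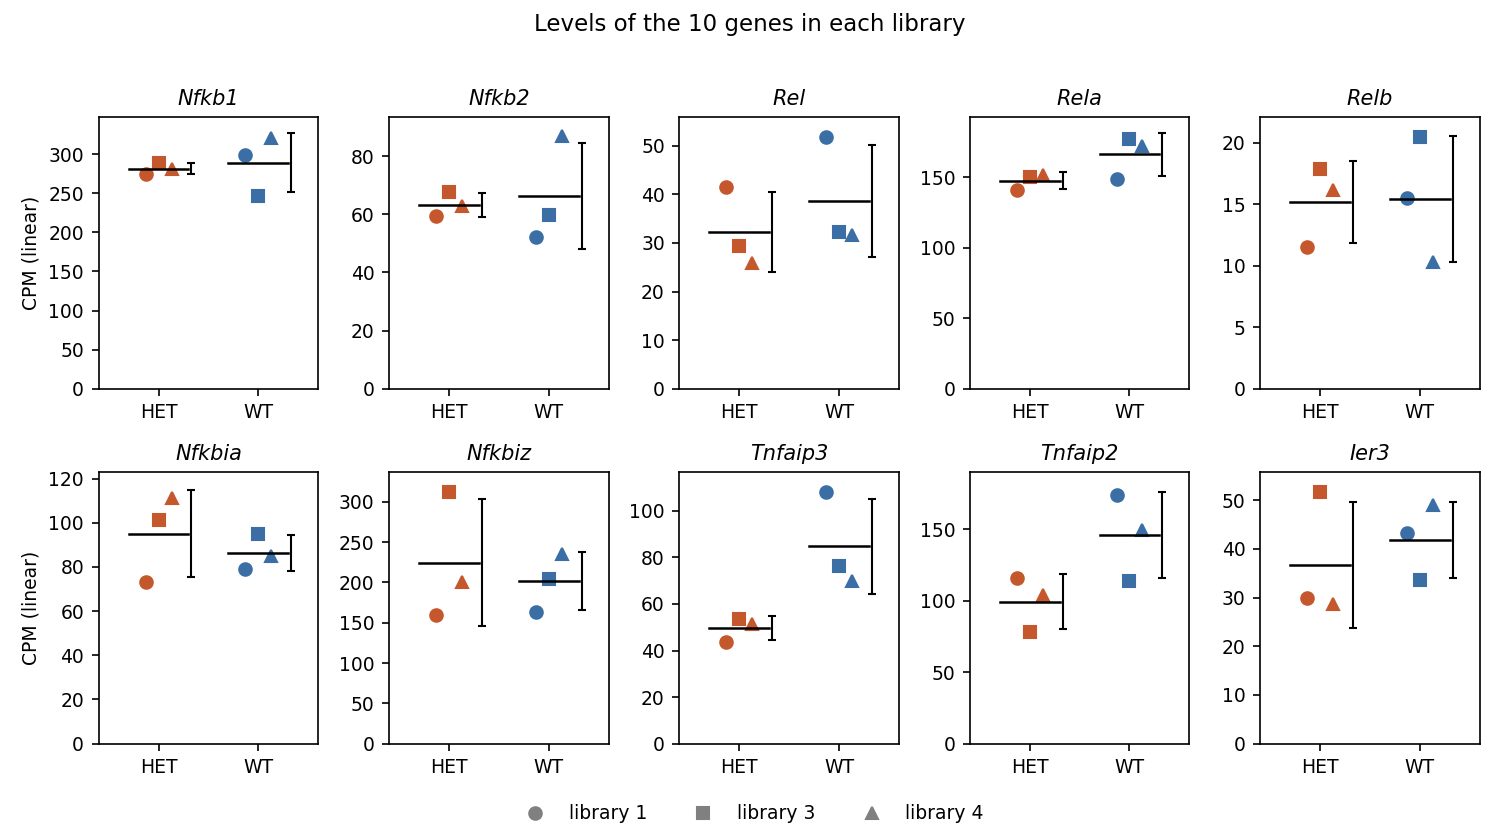
CPM of each of the 10 genes (vertical axes, linear, from 0) in the 3 HET and the 3 WT libraries, with marker shape showing the library number, horizontal lines the group mean and bars 1 SD. In Tnfaip3 the HET libraries lie between 43.8 and 53.4 CPM, below the WT libraries, and in each other gene the groups overlap.

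None of the 5 subunit genes passed, and in each the groups overlapped. Nfkb1 (ENSMUSG00000028163; GRCm38 chromosome 3, 135584655 to 135691547, minus strand) encodes p105, the precursor of the p50 subunit. It measured 274.0, 288.1 and 281.4 CPM in HET 1, 3 and 4, against 299.3, 247.0 and 320.3 CPM in WT 1, 3 and 4. The HET values sat inside the WT range. Its fold change was -0.04 ± 0.12 on the log2 scale (SE), and the 95% interval put HET between 82.2% and 115% of WT. The within-group SD of its log2 CPM was 0.04 in HET and 0.19 in WT, where the medians over all genes tested were 0.23 and 0.22.

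Rela (chromosome 19, 5637483 to 5648130, plus strand) encodes p65, the main activating partner of p50. It measured 140.7, 150.3 and 151.4 CPM in HET 1, 3 and 4, against 148.8, 177.3 and 172.2 CPM in WT 1, 3 and 4. Only WT 1 reached into the HET range. The log2 fold change was -0.17 ± 0.12 (SE), with HET between 74.3% and 106% of WT.

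Rel (chromosome 11, 23736847 to 23770970, minus strand) encodes c-Rel, an activating subunit of blood cells. It had 41.5, 29.4 and 25.9 CPM in HET 1, 3 and 4, against 51.8, 32.2 and 31.7 CPM in WT 1, 3 and 4. Library 1 was the highest in both groups. Its log2 fold change was -0.25 ± 0.25 (SE), and without WT 1 it was 0.02.

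The remaining subunits belong to the slower, alternative branch of the pathway, in which p100, the product of Nfkb2, is processed to p52 and pairs with RelB. Nfkb2 (chromosome 19, 46304320 to 46312385, plus strand) measured 59.5, 67.6 and 62.7 CPM in HET 1, 3 and 4, against 52.1, 59.8 and 87.0 CPM in WT 1, 3 and 4. The WT spread contained the HET values, and the log2 fold change was -0.07 ± 0.19 (SE). On the opposite strand AC114539.1 shares 531 bases, 11.6% of the exonic length of Nfkb2, and Psd shares 299 bases, 6.52%, and no source used here states the strand setting of the counting, so reads from those bases cannot be assigned. Relb (chromosome 7, 19606217 to 19629438, minus strand) was the least abundant, with 11.5, 17.9 and 16.2 CPM in HET 1, 3 and 4, against 15.5, 20.5 and 10.3 CPM in WT 1, 3 and 4. It rested on 43 to 116 counts per library, and its log2 fold change of -0.04 ± 0.33 (SE) leaves a 95% interval from 60.5% to 157% of WT.

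Both IkB family genes among the 10 had fold changes above 0, and neither passed. Nfkbia (ENSMUSG00000021025; chromosome 12, 55489410 to 55492647, minus strand) encodes IkB-alpha, the inhibitor that NF-kB resynthesises within the first round of activation. It measured 73.0, 101.2 and 111.3 CPM in HET 1, 3 and 4, against 79.0, 95 and 84.9 CPM in WT 1, 3 and 4. HET 1 was the lowest of the 6 libraries and HET 4 the highest. The log2 fold change was 0.14 ± 0.17 (SE), with HET between 86.5% and 139% of WT. Without HET 4 it was 0.01, and without HET 1 it was 0.30.

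Nfkbiz (chromosome 16, 55811375 to 55838899, minus strand) encodes IkB-zeta, a nuclear member of the family that works with NF-kB at a subset of its targets. It measured 159.7, 312.3 and 200.9 CPM in HET 1, 3 and 4, against 163.8, 204.7 and 235.4 CPM in WT 1, 3 and 4. HET 3 stood above the other libraries, HET 1 was the lowest, and the within-group SD of log2 CPM was 0.49 in HET, the largest among the 10 genes there. Its log2 fold change was 0.15 ± 0.25 (SE), and without HET 3 it was -0.16.

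The gene nearest to a change was Tnfaip3 (ENSMUSG00000019850; chromosome 10, 19000910 to 19015657, minus strand), which encodes A20, the ubiquitin-editing enzyme that terminates signalling upstream of IkB kinase. It measured 43.8, 53.4 and 51.6 CPM in HET 1, 3 and 4, against 107.9, 76.3 and 69.9 CPM in WT 1, 3 and 4. The groups did not overlap, and WT 1 was well above the other WT libraries. Means were 49.6 ± 5.10 CPM in HET and 84.7 ± 20.3 CPM in WT (SD, n = 3 each). This put HET at 58.4% of WT, with a 95% interval from 44.6% to 76.3%, and the log2 fold change was -0.78 ± 0.19 (SE). Its unadjusted edgeR p of 4.340e-04 was the 41st smallest of the 10869 and gave an adjusted p of 0.115. In DESeq2 the adjusted p was 0.0271. Over the 14 alternative fits the adjusted p ran from 0.0271 to 0.562 and the log2 fold change from -0.89 to -0.56, the smallest difference being the one without WT 1.

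Tnfaip2 (chromosome 12, 111442469 to 111455018, plus strand), a gene induced by tumour necrosis factor whose product is linked to membrane protrusions, measured 115.5, 78.1 and 103.9 CPM in HET 1, 3 and 4, against 174.1, 114.0 and 149.1 CPM in WT 1, 3 and 4. The groups overlapped narrowly, HET 1 lying just above WT 3. Its level in HET was 68.3% of WT, with a 95% interval from 53.5% to 87.2%. The log2 fold change was -0.55 ± 0.17 (SE), and edgeR gave an adjusted p of 0.429. In each group library 1 was the highest and library 3 the lowest. An antisense transcript, Gm40578, overlaps 6.30% of its exonic length.

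Ier3 (chromosome 17, 35821684 to 35822923, plus strand), an immediate early gene of cell survival also called IEX-1, measured 29.9, 51.7 and 28.6 CPM in HET 1, 3 and 4, against 43.3, 33.5 and 48.9 CPM in WT 1, 3 and 4. HET 3 was the highest of all 6 libraries while the other HET libraries were the lowest. Its log2 fold change was -0.20 ± 0.24 (SE), and leaving out 1 library gave values from -0.51 without HET 3 to -0.04 without HET 4.

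**Figure D3:**
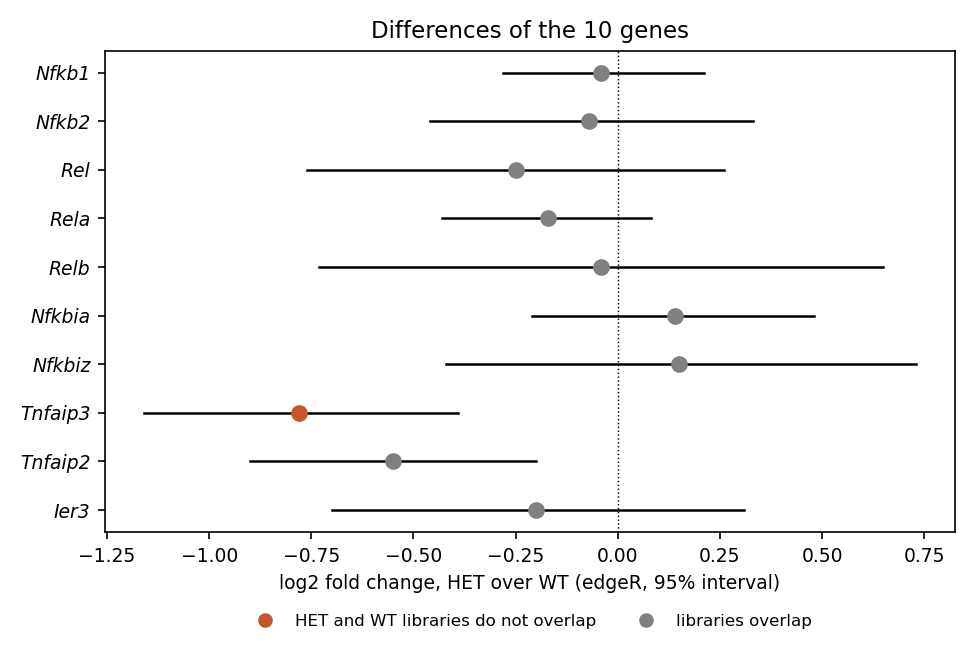
Log2 fold change of HET over WT for each of the 10 genes (points) with its 95% interval from edgeR (lines), coloured where the libraries of the groups do not overlap. The intervals of Tnfaip3 (-1.16 to -0.39) and Tnfaip2 (-0.90 to -0.20) lie below 0, unadjusted for the number of genes, and those of the other 8 genes include 0.

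Whether Tnfaip3 differed from the other 9 genes was examined within each library, where the scaling of the library cancels. This comparison was chosen after the values were seen. Tnfaip3 was taken as the gene of smallest p and the only one without overlap, so lower ratios in HET partly repeat that choice. The ratio of Tnfaip3 counts to Nfkbia counts was 0.601, 0.528 and 0.464 in HET 1, 3 and 4, against 1.37, 0.803 and 0.823 in WT 1, 3 and 4. No HET ratio reached a WT ratio, and the mean log2 ratio was -0.92 ± 0.19 in HET and -0.05 ± 0.43 in WT (SD, n = 3 each). Against Nfkb1 the ratio was 0.160, 0.185 and 0.184 in HET, and 0.360, 0.309 and 0.218 in WT. All 9 ratios share the Tnfaip3 values, and in 5 of them (over Nfkb1, Rel, Rela, Nfkbia and Nfkbiz) all HET libraries were below the lowest WT library. For each of these 5 the exact two-sided permutation test gave p = 0.1, the smallest it allows, and 0.180 after adjustment over the 9 ratios. No ratio could have reached 0.05, so the test cannot decide whether Tnfaip3 differed from the other genes. Against Tnfaip2 the groups overlapped (exact p = 0.7), and likewise for Nfkb2, Relb and Ier3.

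Compared per kilobase of exonic length, the highest means were those of the inhibitor gene Nfkbia and of Rela, which encodes p65. The exonic length counts all annotated exonic blocks of a gene and can exceed the length of any single transcript. The order below depends on that length, which was 12061 bases for Nfkb1 and 1610 for Nfkbia. By CPM without the length, Nfkb1 had the highest mean of these genes, at 281 ± 7.06 in HET and 289 ± 37.8 in WT (SD, n = 3 each). Nfkbia had 59.1 ± 12.3 CPM per kb in HET and 53.6 ± 5 in WT, and Rela had 48.0 ± 1.92 in HET and 54.1 ± 4.94 in WT (SD, n = 3 each). Nfkbiz, Ier3, Tnfaip2 and Nfkb1 followed in that order of the mean over all 6 libraries, then Nfkb2, Tnfaip3, Rel and Relb. The ranges of neighbours in this order overlapped, except that the lowest Nfkb1 library (20.5 CPM per kb) lay above the highest Nfkb2 library (19.0). Relb, at 3.91 ± 0.850 CPM per kb in HET and 3.97 ± 1.32 in WT, stood at the 30.7th percentile of the table, and Nfkbia at the 94.4th. Tnfaip3 was in the middle, with 6.87 ± 0.705 CPM per kb in HET and 11.7 ± 2.82 in WT, where the median gene of the table had 8.21.

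AU-rich elements were counted because several of these messages are known to be short-lived. Such elements in the 3' untranslated region can mark transcripts for rapid decay. The AU-rich nonamer TTATTTATT, searched on the sense strand of the longest 3' untranslated region of each gene in GENCODE M21, occurred in 3 of the 10 genes (Nfkbia, Tnfaip3 and Rel) and in 7.82% of the 10592 tested genes with such a region. A longer region has more room for a match, and the share was not adjusted for length. The region was 5418 bases in Rel, 1821 in Tnfaip3 and 512 in Nfkbia, where the median was 1371. The core of the nonamer, ATTTA, was densest in Ier3, at 8.16 per kb, followed by Nfkbia at 3.91, Nfkbiz at 2.95 and Tnfaip3 at 2.75. The median gene had 1.2. Rela and Relb had 0. The log2 fold changes of these induced genes were 0.14 ± 0.17 for Nfkbia, 0.15 ± 0.25 for Nfkbiz, -0.78 ± 0.19 for Tnfaip3 and -0.20 ± 0.24 for Ier3 (SE). Of these only the 95% interval of Tnfaip3 excluded 0, and a link between elements and fold change was not tested.

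The rest of the pathway was counted over lists ordered by role. Of the 27 genes for kinases and adaptors that carry the signal, all were tested and 0 passed in either direction, with a median log2 fold change of 0.05. An unadjusted p under 0.05 was reached by 1, Irak4, a kinase of interleukin-1 and Toll-like receptors, at 45.9, 47.8 and 59.6 CPM in HET 1, 3 and 4, against 40.4, 29.3 and 40.3 CPM in WT 1, 3 and 4. Its libraries did not overlap, with a difference of 0.48 ± 0.21 on the log2 scale (SE; adjusted p in edgeR 0.844). Sharpin, a subunit of the linear ubiquitin ligase, and Ripk1 also had every HET library above every WT library (0.27 ± 0.19 and 0.10 ± 0.12, SE). Ube2n had every HET library below every WT library (-0.23 ± 0.27, SE). That makes 3 of the 27 with HET above and 1 with HET below, against 4.69% and 5.64% over all genes. Chuk, which encodes IKK-alpha, overlapped (0.42 ± 0.28, SE). Ikbkb, the gene of the main activating kinase IKK-beta, measured 199 ± 12.3 CPM in HET and 192 ± 13.8 CPM in WT (SD, n = 3 each).

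Of 16 tested genes for receptors and sensors, 0 passed in edgeR, with a median of 0.17. HET lay above WT without overlap in 1 and below it in 1, against 4.69% and 5.64% over all genes. An unadjusted p under 0.05 was reached by 1, where the share over all genes was 5.22%. That gene was Nod2, a sensor of bacterial cell wall, at 6.7, 10.5 and 8.8 CPM in HET 1, 3 and 4, against 2.3, 2.6 and 5.5 CPM in WT 1, 3 and 4, without overlap (edgeR adjusted p = 0.792). Tnfrsf1a, the receptor for tumour necrosis factor, measured 137 ± 21.5 CPM in HET and 112 ± 4.42 CPM in WT, and Ifih1, which encodes the poly(I:C) sensor MDA5, measured 69.8 ± 8.65 CPM in HET and 55.6 ± 10.6 CPM in WT (SD, n = 3 each), with overlapping libraries in both. Of 12 listed ligand genes 5 were tested. Among them 0 passed in edgeR and 0 had an unadjusted p under 0.05, and Tnf, the archetypal ligand of the pathway, measured 4.21 ± 0.998 CPM in HET and 6.37 ± 3.88 CPM in WT (SD, n = 3 each). Ltb, which encodes lymphotoxin beta, a ligand of the alternative branch, measured 47.1 ± 17.2 CPM in HET and 54.0 ± 4.85 CPM in WT.

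Among 15 tested genes for other inhibitors, 0 passed in edgeR and the median was -0.05. HET lay below WT without overlap in 3 (Nfkbid, Zc3h12a and N4bp1) and above it in 1 (Pdlim2), against 5.64% and 4.69% over all genes. The log2 fold change was -0.09 ± 0.14 for N4bp1 and 0.36 ± 0.20 for Pdlim2 (SE). An unadjusted p under 0.05 was reached by 2 of the 15, where the share over all genes was 5.22%. The first was Nfkbid, which encodes IkB-NS, a nuclear relative of IkB-zeta. It measured 64.0, 33.8 and 28.3 CPM in HET 1, 3 and 4, against 120.9, 105.7 and 154.8 CPM in WT 1, 3 and 4. No HET library came near the WT libraries, and HET 1 was the highest of the HET libraries. The 95% interval put HET between 21.4% and 53.0% of WT. On the log2 scale the difference was -1.57 ± 0.29 (SE), and edgeR's adjusted p was 0.107. The call depended on the test, on a block for library number in the fit and on HET 1. The adjusted p was 5.511e-07 with DESeq2, 0.0158 with limma-voom, 0.00965 in edgeR with the block and 4.413e-07 in edgeR without HET 1. In the other fits Nfkbid did not pass, and its adjusted p ran up to 0.362.

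The second was Zc3h12a, the gene of the RNase Regnase-1, which degrades inflammatory messages. It measured 54.9, 51.9 and 45.6 CPM in HET 1, 3 and 4, against 82.3, 64.6 and 93.5 CPM in WT 1, 3 and 4. The groups did not overlap, and the log2 fold change was -0.65 ± 0.18 (SE, edgeR adjusted p = 0.245). The remaining IkB family genes overlapped between groups. Nfkbib (IkB-beta) had a log2 fold change of -0.08 ± 0.26, Nfkbie (IkB-epsilon) 0.04 ± 0.23 and Bcl3 0.51 ± 0.28 (SE). The A20 partner Tnip1 measured 201 ± 28.8 CPM in HET and 189 ± 20.9 CPM in WT, and the deubiquitinase gene Cyld 104 ± 9.80 CPM in HET and 106 ± 12.5 CPM in WT (SD, n = 3 each).

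Of 23 tested genes in the list of other targets, 1 passed in edgeR with lower values in HET and 0 with higher values. Over all genes 0.221% and 0.0368% did so. The fold changes were negative in 14 and positive in 9, with a median of -0.14. HET lay below WT without overlap in 4 genes and above it in 0, against 5.64% and 4.69% over all genes. An unadjusted p under 0.05 was reached by 5 of the 23 (Junb, Zc3h12a, Myc, Icam1 and Irf1), all with values below 0, where the share over all genes was 5.22%. Junb, which encodes a subunit of AP-1, measured 367.1, 412.8 and 277.3 CPM in HET 1, 3 and 4, against 704.3, 714.4 and 755.0 CPM in WT 1, 3 and 4 (-1.04 ± 0.12 on the log2 scale, SE; adjusted p in edgeR 1.948e-04). It responds to many signals besides NF-kB, and Myc, which is also in the list, is the gene deleted by design. Zc3h12a, Bcl3, Nfkbie and Tnip1 stand both in this list and among the other inhibitors. Icam1, an adhesion receptor and a classical target, singled out after its values were seen, had every HET library below every WT library, with 70.8 ± 4.75 CPM in HET and 102 ± 29.1 CPM in WT (SD, n = 3 each, edgeR adjusted p = 0.564). The survival gene Birc3 measured 47.9 ± 4.83 CPM in HET and 53.9 ± 2.13 CPM in WT, and Sod2, the mitochondrial superoxide dismutase, 85.5 ± 5.03 CPM in HET and 79.9 ± 9.89 CPM in WT, both with overlapping libraries.

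**Figure D4:**
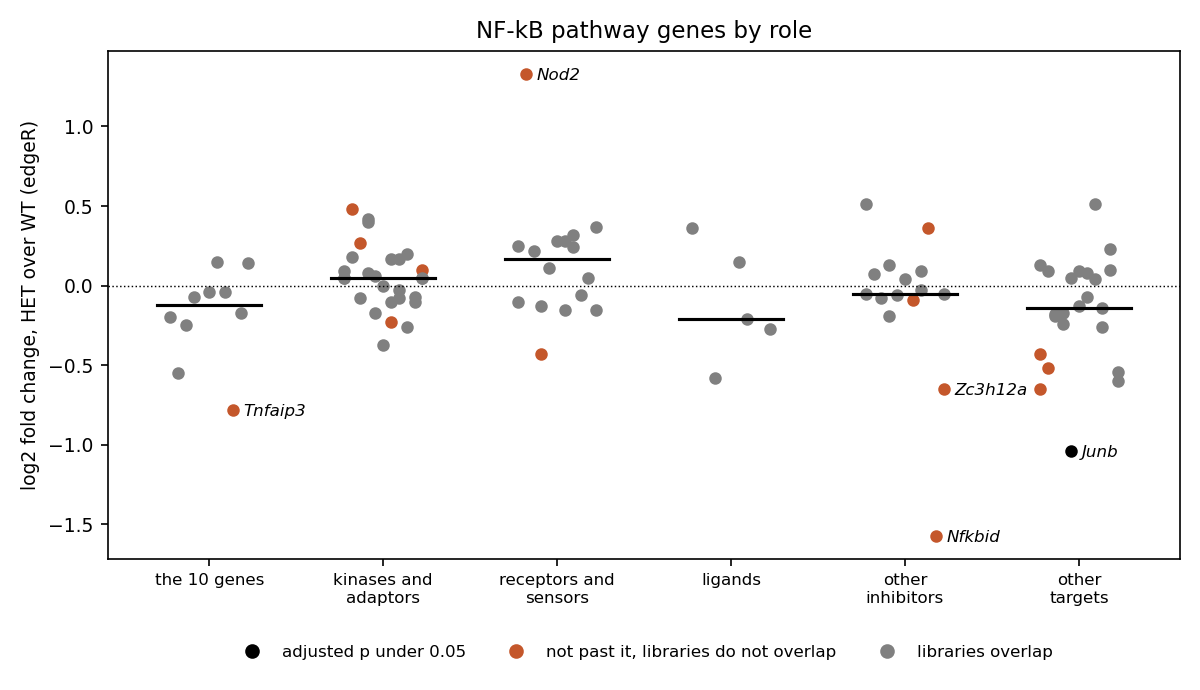
Log2 fold change of HET over WT from edgeR for the 10 genes and for the tested genes of 5 other lists of the pathway, 1 point per gene, with black lines at the medians and colours for the outcome of the test and the overlap of the libraries. Junb (-1.04) passed the adjusted threshold, Nfkbid (-1.57) and Tnfaip3 (-0.78) did not, and the medians lie between -0.21 for ligands and 0.17 for receptors and sensors.

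**Figure D5:**
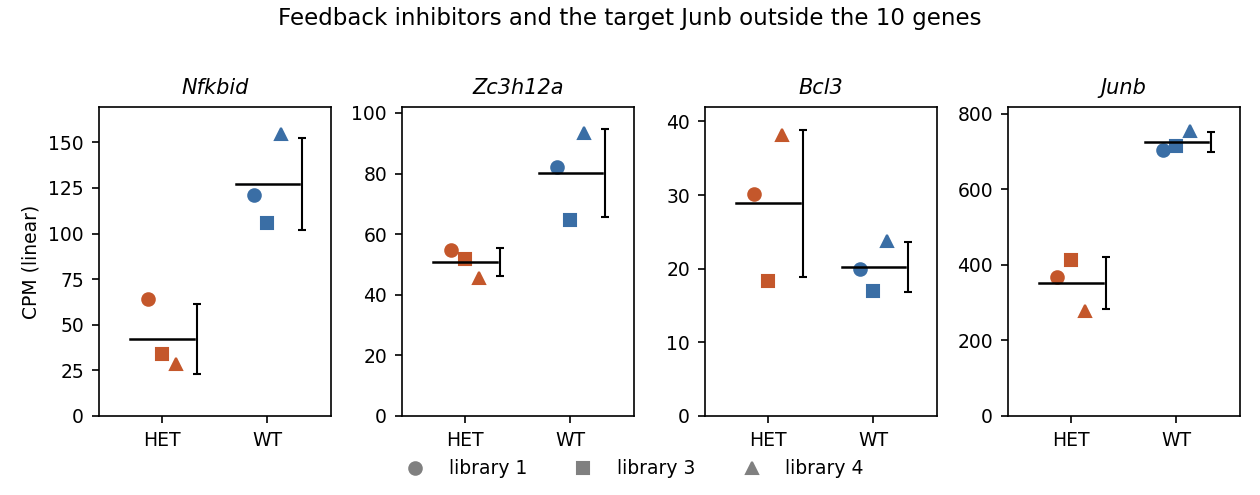
CPM (vertical axes, linear, from 0) of Nfkbid, Zc3h12a, Bcl3 and Junb in the 3 HET and the 3 WT libraries, with marker shape for the library number, lines for the means and bars for 1 SD. HET libraries lie below WT libraries in Nfkbid, Zc3h12a and Junb, and overlap them in Bcl3.

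Genes whose level followed that of Tnfaip3 most closely over the 6 libraries were Mxi1 (r = 0.989), Zxdc (0.984), Nedd4 (0.983), Dennd4a (0.980) and Man2a2 (0.975). They were ranked by Pearson's r of log2 CPM among 9805 genes, leaving out predicted genes (Gm and Rik names). All 5 also had every HET library below every WT library, which a high r with Tnfaip3 favours, and none passed in edgeR. The r values are a description over libraries that share the same groups.

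Levels of other gene groups are given beside the 10 genes, and their part in these values was not tested. Immediate early and handling stress genes respond to many signals and to tissue handling. Of the 21 tested, 3 passed in edgeR with lower values in HET (Btg2, Junb and Fosl2) and 0 with higher values. Over all genes 0.221% and 0.0368% did so. An unadjusted p under 0.05 was reached by 10 of the 21, where the share over all genes was 5.22%. These included Ier5, which was higher in HET (0.49 ± 0.20 on the log2 scale, SE). Of the 21 fold changes 14 were negative and 7 positive, with a median of -0.62. In 7 genes HET lay below WT without overlap, and in 0 above it, against 5.64% and 4.69% over all genes. Without HET 1 the list had 6 calls, and without HET 3 the adjusted p of Fosl2 was 0.0734. The summed level of the list, over the 23 genes in the table, was 6411 to 9598 CPM in HET and 8055 to 11059 CPM in WT. Jun, the most abundant, measured 2117 ± 419 CPM in HET and 1663 ± 903 CPM in WT (SD, n = 3 each). Its libraries overlapped, with a log2 fold change of 0.35 ± 0.51 (SE). Fos, the next most abundant, measured 904 ± 196 CPM in HET and 1392 ± 266 CPM in WT (SD, n = 3 each). Fos did not pass in edgeR (adjusted p = 0.541) but did with DESeq2 (0.0171) and in edgeR without HET 3 (0.0109). Of 24 tested type I interferon genes 0 passed in edgeR, and 17 fold changes were positive and 7 negative. An unadjusted p under 0.05 was reached by 4, where the share over all genes was 5.22%. Mx1, Zbp1 and Stat2 were higher in HET and Isg20 was lower. HET lay above WT without overlap in 3 genes and below it in 1, against 4.69% and 5.64% over all genes. Mx1, whose promoter drives the Cre, had every HET library above every WT library (edgeR adjusted p = 0.450). The summed level of the list was 871 to 1114 CPM in HET and 789.8 to 972 CPM in WT. Neutrophil genes (10 of 12 listed in the table used here) summed to 210.2 to 479 CPM in HET and 147 to 657 CPM in WT. For monocyte and macrophage genes (8 of 10) the sums were 194 to 206 CPM in HET and 168 to 211 CPM in WT, and for dendritic cell genes (5 of 9) 194 to 320.2 CPM in HET and 228 to 230.1 CPM in WT. Markers of T and NK cells (3 of 9 listed, with no Cd3 gene among them) stayed at or under 30.0 CPM in HET and 22.5 CPM in WT, and those of B and plasma cells (2 of 8) at or under 20.3 CPM in HET and 23.4 CPM in WT. Erythroid genes (4 of 8) reached 21.2 CPM in HET and 24.9 CPM in WT, and stroma and endothelium genes (5 of 8) 215 CPM in HET and 216 CPM in WT. Megakaryocyte genes (8 of 8), part of which stem cells themselves express, summed to 1456 to 1607 CPM in HET and 1229 to 1322 CPM in WT. In sorted bulk samples, fewer cells with a transcript and less transcript per cell cannot be told apart.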

How the data were processed

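The authors deposited a table of raw read counts, genes by libraries. Their processing notes list FastQC, STAR 2.5.2b, edgeR and limma, and mm10 as the genome, without roles; the read counter and strand setting were not stated. The protocol fields of these samples describe another study and were not used. No gene had a second-highest CPM under 1.012, so the table was already filtered.

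HET was compared with WT over the whole table in edgeR 4.0.16 (R 4.3.3) with filterByExpr (910 genes removed), TMM scaling and the robust quasi-likelihood F test, adjusted by Benjamini-Hochberg over 10869 genes at 0.05. The biological coefficient of variation was 20.7%, and SEs were derived from F. Alternatives were DESeq2 1.42.0, limma-voom (limma 3.58.1), other scalings and filters, a block for library number, thinning of HET 1 and leaving out each library. A count of 3 equals 0.303 to 0.706 CPM, depending on the library. The scripts were tested on simulated counts. Positions and exonic lengths came from GENCODE M21 (GRCm38), promoters from RefSeq.

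The 10 genes and all lists were chosen with earlier results of these data known. Named were the 10 genes, Myc, per pathway list every gene past the threshold and up to 3 of smallest p, up to 2 most abundant genes of each other list, and the 5 genes most like Tnfaip3, the member of smallest p, whose average log2 CPM was 2 or more. Others (Nfkbib, Nfkbie, Tnip1, Cyld, N4bp1, Pdlim2, Ikbkb, Icam1, Irf1, Birc3, Sod2, Slamf1, Cd48, Ripk1, Ube2n, Ier5, Mx1, Zbp1, Stat2 and Isg20) were chosen after their values were seen.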

Additional observations from a re-analysis of the deposited data

How the results depend on the processing

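Of the 10 genes, 0 passed in 13 of 14 alternative fits and 1, Tnfaip3, with DESeq2 (log2 fold change -0.78). Leaving out 1 library left the count at 0 and gave ranges of -0.14 to 0.04 for Nfkb1, -0.22 to 0.18 for Nfkb2, -0.48 to 0.02 for Rel, -0.25 to 0.22 for Relb, and -0.16 to 0.35 for Nfkbiz, whose directions depended on single libraries. They were -0.25 to -0.12 for Rela, 0.01 to 0.30 for Nfkbia, -0.89 to -0.56 for Tnfaip3, -0.70 to -0.40 for Tnfaip2 and -0.51 to -0.04 for Ier3, which kept their direction in these 6 fits. The ranges were -0.14 to 0.21 for Irf9, -0.44 to 0.07 for Ltb and -0.09 to 0.15 for Oasl2. Immediate early genes called were 3 to 6. The count of other inhibitors called was 0 to 1 without 1 library each, and 1 (Nfkbid) with DESeq2, with limma-voom and with the replicate block, where its adjusted p was 0.00965. Of all genes, 28 passed, against 57 with DESeq2, 49 with the replicate block, and 10, 11 and 68 without HET 4, WT 1 and HET 1. The causes were not tested.

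Deviations of same-numbered libraries correlated at 0.166, -0.0795 and 0.0958 for numbers 1, 3 and 4, so the numbers were not taken as pairs; under the block 0 of the 10 genes passed. Relb rested on the fewest counts of the 10 genes and had the widest 95% interval, -0.73 to 0.65.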
